A study of Mus musculus with 16 samples.

Results

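The 10 genes described here encode transcription regulators of naive mouse pluripotency: Pou5f1, Nanog, Sox2, Klf4, Klf2, Esrrb, Tfcp2l1, Tbx3, Zfp42 and Prdm14. They were taken by name, and all 10 matched one of 26180 gene symbols with a curated RefSeq transcript on GRCm38. ChIP-sequencing peaks of H3K4me3, Suz12 and H3K27me3 were read at their start sites and over their bodies in 2 cultures of R1 mouse embryonic stem cells (ESCs). In both cultures the cells carry MycER, in which Myc is joined to a hormone-binding part of the estrogen receptor and becomes active with 4-hydroxytamoxifen (OHT). The study's methods describe such cells as clonal lines, with a point mutation in the Myc it used. LIF-ESCs received 100 units per ml of the cytokine LIF and no OHT, and Myc-ESCs received 50 nM OHT and no LIF. Both were grown in serum without feeder cells. The comparison asks how the chromatin of these genes differs when activated Myc takes the place of LIF. Loss of LIF and activation of Myc came together, so their effects cannot be told apart here.

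Naive pluripotency is the state of the early epiblast that mouse ESCs keep in culture. Oct4 (encoded by Pou5f1), Sox2 and Nanog form its core network, and LIF feeds into this network through Jak/Stat3, which acts on Klf4 and Tfcp2l1, while Tbx3, Esrrb, Klf2 and Nanog also respond to other signals. H3K4me3 is a histone mark of active or poised start sites, and broad domains of it are known at genes of cell identity. Suz12 is a subunit of Polycomb repressive complex 2 (PRC2), which deposits H3K27me3, a mark of repressed genes. A start site with both H3K4me3 and H3K27me3 is called bivalent.

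Of 16 libraries, each culture and antibody has 2 and 4 are inputs, but 1 peak list was given for each culture and antibody, 6 in all. The lists held 32469 and 30345 H3K4me3 peaks in LIF- and Myc-ESCs, 11305 and 13907 Suz12 peaks, and 3120 and 16717 H3K27me3 peaks. The depth behind each list is unknown, no list per replicate was analysed here, and no difference given here could be set against replicate error, so no test was run. The score of a peak is the authors' own value, on a log10 scale of the p-value from the MACS peak caller. It starts at 50, grows with depth and is tied at 3100 for many strong peaks, so it serves only to rank peaks within a list.

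H3K4me3 lay at the start sites of all 10 genes in both cultures, whereas a Suz12 or H3K27me3 peak (here Polycomb peak) lay at 2 of them in LIF-ESCs and at 5 in Myc-ESCs, against 12.7 and 16.1% of all genes. The fifth gene, Tfcp2l1, rests on 1 H3K27me3 peak of 148 bp that is lost at a score of at least 100 and with lists of equal length. A mark was assigned to a gene if any part of a peak fell no more than 2500 bp from one of its curated start sites. Among all genes, 62.2% had H3K4me3 in LIF-ESCs against 63.3% in Myc-ESCs. Suz12 was called at Esrrb and Prdm14 in LIF-ESCs, against 12.1% of all genes, and at Esrrb, Prdm14, Klf4 and Tbx3 in Myc-ESCs, against 14.6%. H3K27me3 was called at none of the 10 genes in LIF-ESCs, where 3.82% of all genes carried it, and at Esrrb, Tfcp2l1, Tbx3 and Prdm14 in Myc-ESCs, against 10.7%. Of these, Prdm14 alone kept H3K27me3 at a score of at least 100, and likewise with lists of equal length. The H3K4me3 domains of 6 genes were at least 1.5-fold shorter in Myc-ESCs and none was longer by that factor, against 5.31 and 6.05% of all genes with H3K4me3 in both cultures, and 19.3% were shorter among those with long LIF-ESC domains. Joining H3K4me3 peaks within 1000 bp of each other left 5 shorter genes, because Zfp42 then fell short of the limit.

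**Figure D1:**
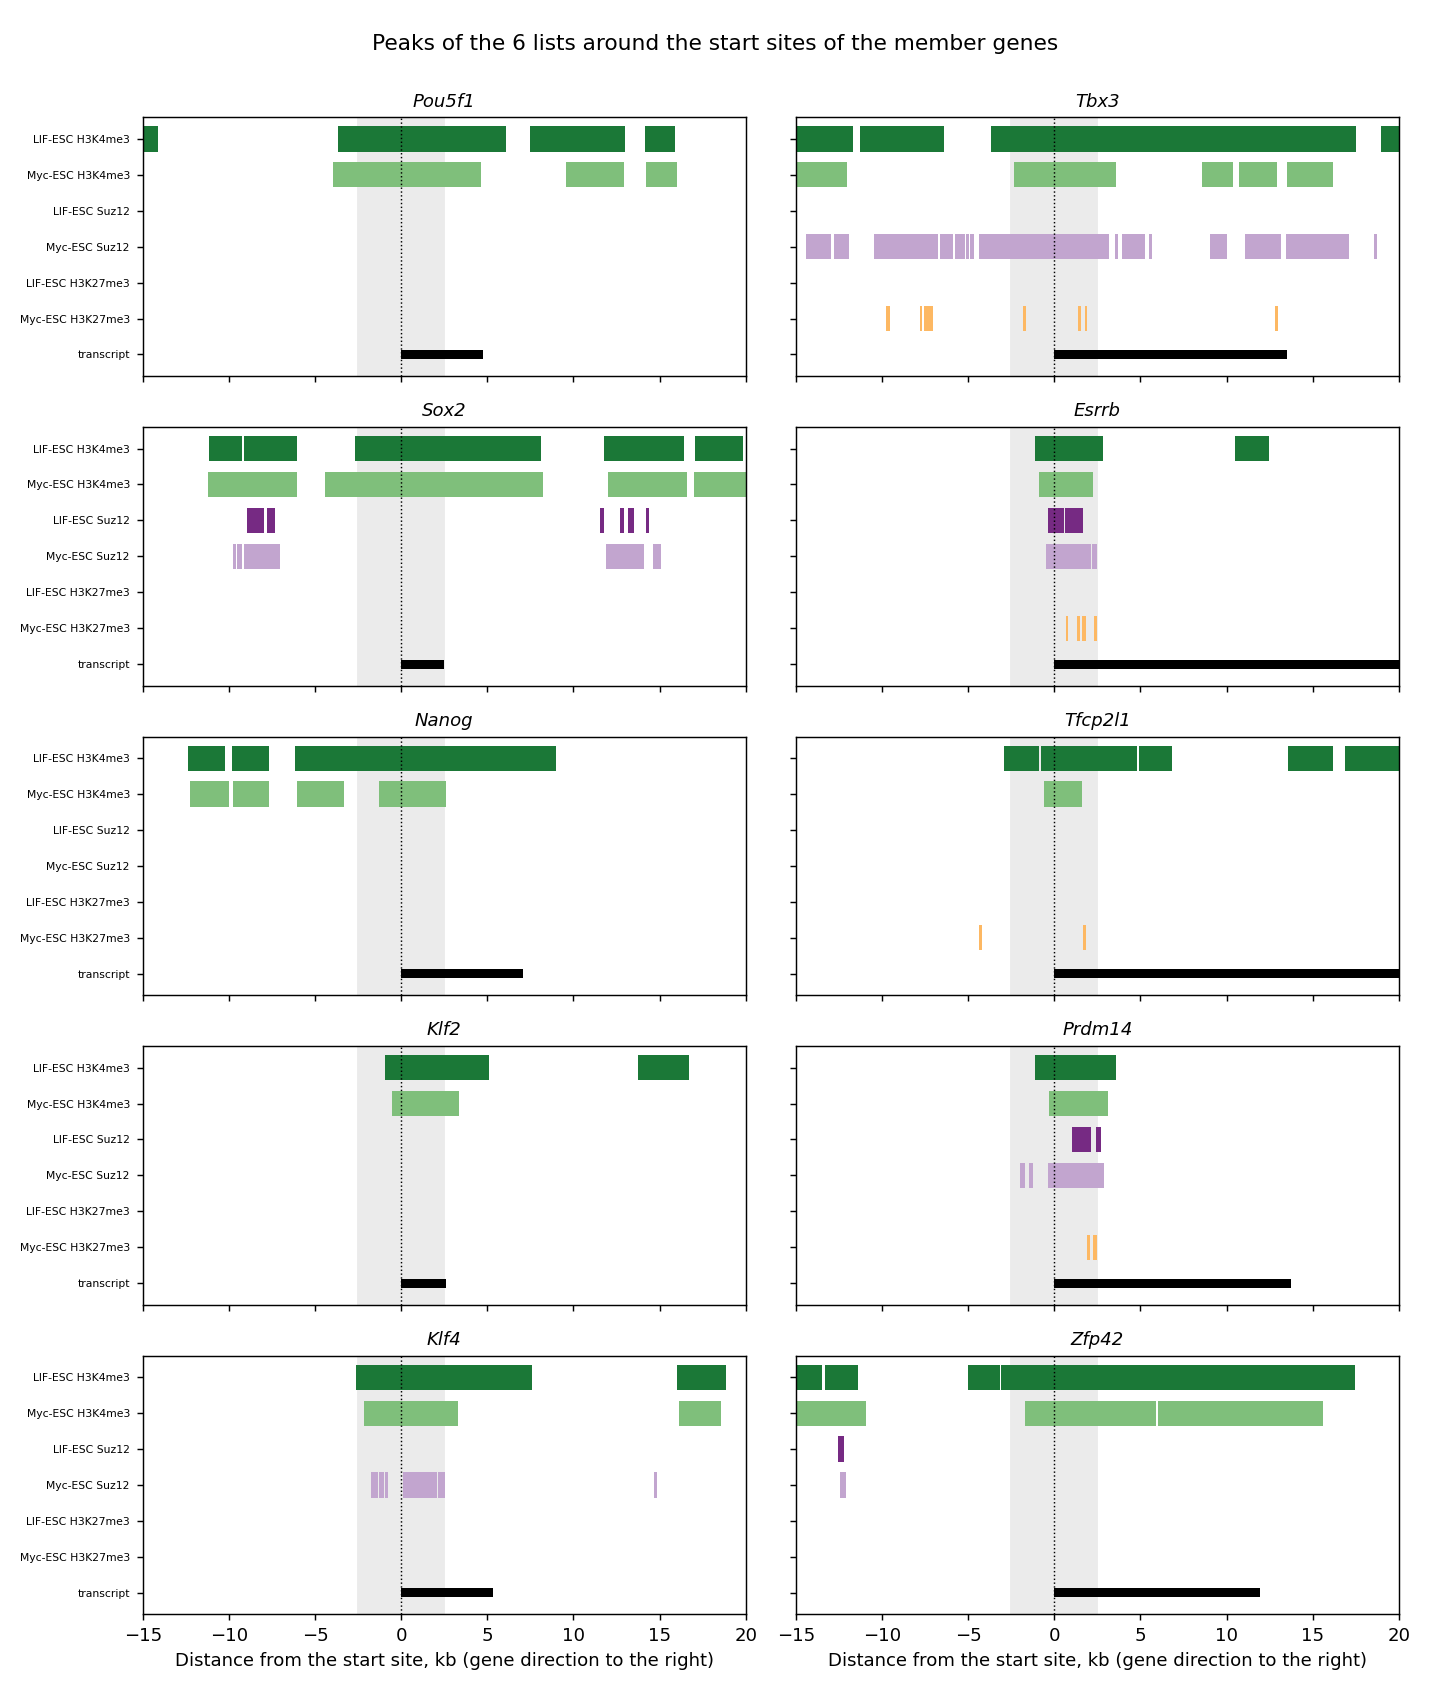
Peaks of the 6 lists from 15 kb before to 20 kb after the start site of each gene (horizontal axis, distance in kb, gene direction to the right). Each row is 1 list, the black bar is the reference transcript and the grey band is the window of 2500 bp each way. Suz12 and H3K27me3 rows are filled within the band in Myc-ESCs at Klf4 (Suz12 alone), Tbx3, Esrrb and Prdm14, and at Tfcp2l1 with 1 H3K27me3 peak.

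The upstream sequences of 5 genes are shown because these promoters stand for the kinds of change that follow. Sox2 kept its H3K4me3 domain, Nanog and Tfcp2l1 had much shorter domains in Myc-ESCs, Klf4 had Suz12 in Myc-ESCs only, and Esrrb had Suz12 in both cultures. Each run gives the 250 bases before a start site, 5′ to 3′, from RefSeq (GRCm38.p6), with CpG dinucleotides in capitals. For Esrrb it precedes the start site that carried the peaks, and for Nanog the upstream one of its 2 curated start sites.
Sox2 (chr3:34649745-34649994, plus strand): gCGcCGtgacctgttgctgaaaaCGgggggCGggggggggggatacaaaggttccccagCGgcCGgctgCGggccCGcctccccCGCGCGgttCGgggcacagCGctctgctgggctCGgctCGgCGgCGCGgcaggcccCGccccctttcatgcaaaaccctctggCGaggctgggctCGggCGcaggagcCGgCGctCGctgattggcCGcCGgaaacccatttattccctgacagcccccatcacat
Nanog (chr6:122707239-122707488, plus strand): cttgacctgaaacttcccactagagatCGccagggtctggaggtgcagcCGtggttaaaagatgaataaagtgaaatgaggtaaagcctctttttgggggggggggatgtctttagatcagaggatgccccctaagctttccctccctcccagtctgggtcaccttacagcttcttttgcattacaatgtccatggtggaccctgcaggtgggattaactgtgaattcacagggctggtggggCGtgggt
Klf4 (chr4:55532476-55532725, minus strand): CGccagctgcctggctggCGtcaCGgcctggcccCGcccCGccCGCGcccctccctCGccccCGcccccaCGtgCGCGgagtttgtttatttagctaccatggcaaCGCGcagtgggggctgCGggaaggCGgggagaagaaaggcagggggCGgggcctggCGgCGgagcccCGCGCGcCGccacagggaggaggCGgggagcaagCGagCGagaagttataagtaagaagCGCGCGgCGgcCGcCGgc
Esrrb (chr12:86421394-86421643, plus strand): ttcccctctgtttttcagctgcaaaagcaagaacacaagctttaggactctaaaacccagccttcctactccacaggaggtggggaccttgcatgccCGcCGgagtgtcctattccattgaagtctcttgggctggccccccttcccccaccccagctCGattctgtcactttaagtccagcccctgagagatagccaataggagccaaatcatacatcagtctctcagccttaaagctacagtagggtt
Tfcp2l1 (chr1:118627695-118627944, plus strand): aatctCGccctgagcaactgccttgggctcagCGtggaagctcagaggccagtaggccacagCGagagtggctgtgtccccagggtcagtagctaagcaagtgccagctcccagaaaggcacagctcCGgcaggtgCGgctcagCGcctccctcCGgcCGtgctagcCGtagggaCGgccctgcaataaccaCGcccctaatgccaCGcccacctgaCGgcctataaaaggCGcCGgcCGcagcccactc
The Klf4 run holds 32 CpGs and the Sox2 run 27, against 16 for Tfcp2l1 and 3 each for Nanog and Esrrb.

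The core factors differed among themselves, with the H3K4me3 domains of Pou5f1 and Sox2 kept and that of Nanog cut short. A domain is the summed length of the H3K4me3 peaks that touch the start-site window. Pou5f1 (gene ID 18999, plus strand of chromosome 17 from 35506032 to 35510777), the POU-domain factor Oct4, had a domain of 9800 bp in LIF-ESCs against 8565 bp in Myc-ESCs, 1.14-fold shorter. It ran from 3687 bp before the start site to 6112 bp after it in LIF-ESCs, past the last exon, and from 3931 bp before to 4633 bp after in Myc-ESCs. The body was covered to 100.0 and 97.6%. Within a window of 5000 bp, which takes in a peak downstream of the gene, the Pou5f1 ratio of Myc- to LIF-ESC lengths was 0.558.

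Sox2 (gene ID 20674, plus strand of chromosome 3 from 34649995 to 34652461) is a single-exon gene for the HMG-box partner of Oct4. Its domain was 10790 bp in LIF-ESCs against 12641 bp in Myc-ESCs, and it was the only one of the 10 that was longer in Myc-ESCs, by a ratio of 1.172. Its Myc-ESC peak was the 45th longest of its list. The single exon lay wholly under H3K4me3 in both cultures. No Suz12 peak touched the window, yet Suz12 flanked the gene on both sides. Upstream, LIF-ESCs had 3 Suz12 peaks from 8946 to 7309 bp before the start site of 221 to 1016 bp, and Myc-ESCs had 4 from 9760 to 7000 bp before it, of 164 to 1837 bp. Downstream, between 11559 and 15056 bp after the start site, LIF-ESCs had 4 peaks of 206 to 355 bp and Myc-ESCs had 3 of 466 to 1721 bp. The nearest H3K27me3 peak to the start site lay 1508321 bp away in LIF-ESCs against 575014 bp away in Myc-ESCs.

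Nanog (gene ID 71950, plus strand of chromosome 6 from 122707489 to 122714633), the homeodomain factor whose level varies between ESCs, had a much shorter domain in Myc-ESCs. One LIF-ESC peak of 15121 bp ran from 6154 bp before to 8966 bp after the start site and covered all 4 exons. The Myc-ESC peak at the start site measured 3876 bp, over exon 1 and part of intron 1, from 1279 bp before to 2596 bp after. The ratio was 0.256, and 0.119% of the 15958 genes marked in both cultures had a lower one. Within a window of 5000 bp the Nanog ratio was 0.438, above those of Tfcp2l1 (0.230) and Zfp42 (0.339). H3K4me3 covered 100.0% of the Nanog body in LIF-ESCs but 37.4% in Myc-ESCs. A separate Myc-ESC peak of 2740 bp (score 387) lay from 6036 to 3297 bp before the start site, under the upstream part of the LIF-ESC domain. No Polycomb peak lay nearer than 43768 bp in either culture.

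The Krüppel-like factors Klf4 and Klf2, zinc-finger activators that can stand in for each other in ESCs, both had shorter H3K4me3 domains in Myc-ESCs, and Klf4 also had Suz12 there. Klf4 (gene ID 16600, minus strand of chromosome 4 from 55527137 to 55532475) had a domain of 10182 bp in LIF-ESCs, over the whole gene, and of 5415 bp in Myc-ESCs, which ended in intron 4. H3K4me3 thus covered 100.0% of the Klf4 body in LIF-ESCs but 61.4% in Myc-ESCs. In LIF-ESCs the nearest Suz12 peak to the start site was 118890 bp away. In Myc-ESCs 5 Suz12 peaks covered 3264 bp of the 5001-bp window (65.3%). The strongest, with a score of 2505, measured 2001 bp and lay from 100 to 2100 bp after the start site, over exons 1 to 3. The other 4 had scores from 63.0 to 185, and 3 of them lay upstream, between 1748 and 734 bp before the start site. No H3K27me3 peak accompanied them, the nearest being 255535 bp away.

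Klf2 (gene ID 16598, plus strand of chromosome 8 from 72319062 to 72321654) had a domain of 6042 bp in LIF-ESCs against 3891 bp in Myc-ESCs, 1.55-fold shorter, which is just past the 1.5-fold limit. Both peaks covered all 3 exons, and the difference lay beyond the gene, since the domain reached 5084 bp after the start site in LIF-ESCs but 3369 bp in Myc-ESCs. Suz12 was not called within 183051 bp of the Klf2 start site in Myc-ESCs or 624943 bp in LIF-ESCs.

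Esrrb and Tfcp2l1 had far less of their bodies under H3K4me3 in Myc-ESCs than in LIF-ESCs. Esrrb (gene ID 26380, plus strand of chromosome 12 from 86361117 to 86521628) is an orphan nuclear receptor and a target of Wnt/β-catenin signalling through Tcf7l1. It has 2 curated start sites, and the upstream one, at 86361117, had no peak of any list. At the other, 86421644, the H3K4me3 domain was 3959 bp in LIF-ESCs against 3102 bp in Myc-ESCs, 1.28-fold shorter. Farther in, LIF-ESCs had a peak of 37178 bp from 41007 to 78184 bp after that start site, from intron 1 to intron 3, which was the second longest H3K4me3 peak of its list. Myc-ESCs had 3 peaks under the same stretch, of 5372, 3045 and 2406 bp. Over the whole Esrrb body, 8 LIF-ESC peaks covered 57641 bp (35.9%) and 4 Myc-ESC peaks covered 13925 bp (8.68%). With RefSeq model transcripts added, whose start sites lie in this stretch, the Esrrb domain ratio was 0.280 instead of 0.784.

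Suz12 was called at the Esrrb start site in both cultures. In LIF-ESCs, 2 peaks of 983 and 1071 bp covered 2054 bp of the window, with scores of 256 and 460. In Myc-ESCs, a peak of 2629 bp with a score of 3100 and a second of 281 bp covered 2910 bp. Suz12 was thus called over a longer stretch of Esrrb in Myc-ESCs, by less than 1.5-fold. H3K27me3 was called in Myc-ESCs only, as 4 peaks of 116 to 206 bp in intron 1, between 671 and 2480 bp after the start site, with scores from 59.1 to 97.9.

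Tfcp2l1 (gene ID 81879, plus strand of chromosome 1 from 118627923 to 118685168) is a grainyhead-like factor and a direct target of Stat3. Its H3K4me3 domain was 7627 bp in LIF-ESCs, as 2 peaks, and 2203 bp in Myc-ESCs, a ratio of 0.289. The Myc-ESC domain was among the shortest at any marked gene, with 7.31% of marked genes below it, whereas 91.7% were below it in LIF-ESCs. Over the body, 4 LIF-ESC peaks covered 17811 bp (31.1%), among them 1 of 8407 bp over exons 3 and 4. The only Myc-ESC peak covered 1638 bp (2.86%), and just 0.0422% of the genes covered in both cultures had a lower ratio of bases over the body than Tfcp2l1. No Suz12 peak lay within 421239 bp of the Tfcp2l1 start site in either culture. A single H3K27me3 peak of 148 bp lay 1674 bp after the start site in intron 1 in Myc-ESCs, next to the end of the H3K4me3 peak, with a score of 53.8, close to the lowest in the list.

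**Figure D2:**
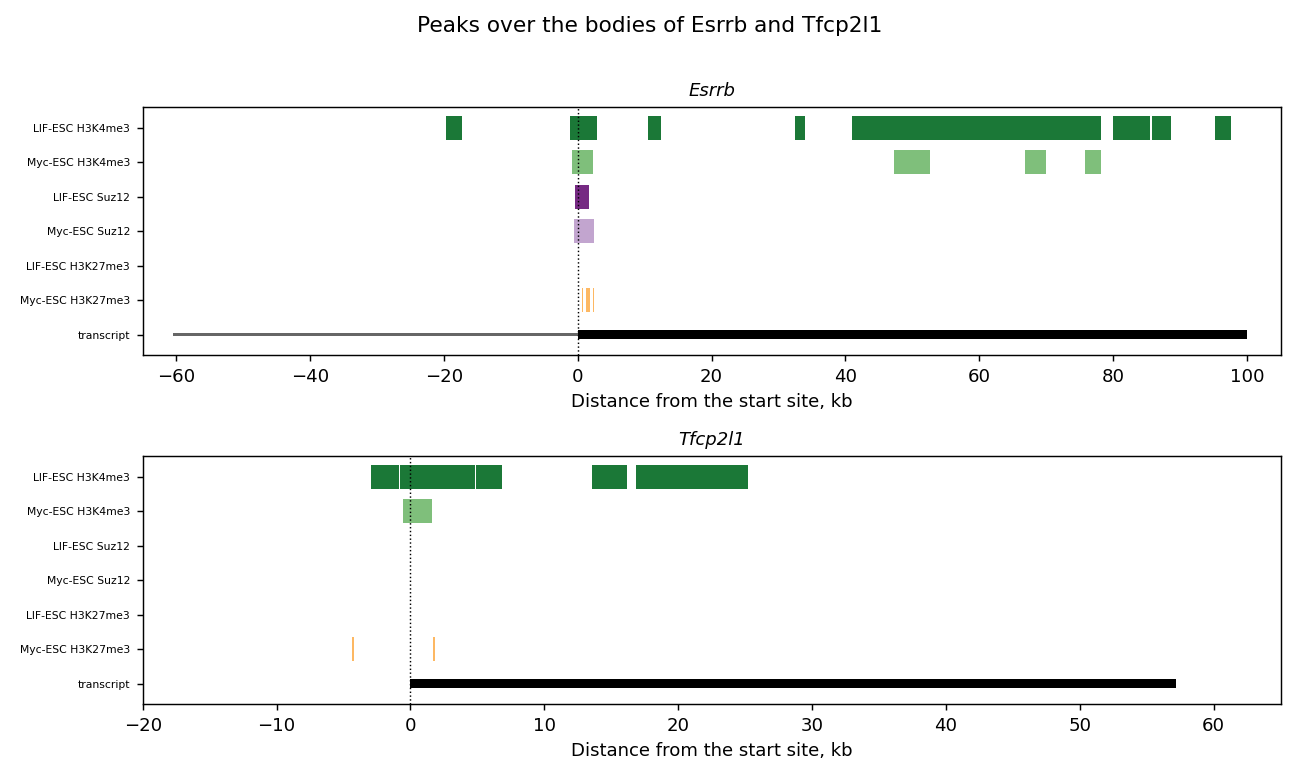
Peaks of the 6 lists over Esrrb (upper panel) and Tfcp2l1 (lower panel), by distance in kb from the start site that carried the peaks. The black bar is the reference transcript and the thin line the rest of the gene. H3K4me3 covered 57641 bp of the Esrrb body in LIF-ESCs but 13925 bp in Myc-ESCs, and 17811 and 1638 bp of Tfcp2l1.

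Tbx3 and Prdm14 had both Polycomb marks in Myc-ESCs. Tbx3 (gene ID 21386, plus strand of chromosome 5 from 119670534 to 119684724), a T-box repressor that supports self-renewal and later acts in limb and heart, had a domain of 11613 bp in LIF-ESCs against 5954 bp in Myc-ESCs, 1.95-fold shorter. H3K4me3 covered 99.9% of the Tbx3 body in LIF-ESCs, with a second peak of 9557 bp directly after the first, and 58.6% in Myc-ESCs. In LIF-ESCs the nearest Suz12 peak to the start site was 124971 bp away and the nearest H3K27me3 peak 129788 bp away. In Myc-ESCs, 1 Suz12 peak of 7563 bp with a score of 3100 covered the whole Tbx3 window, from 4367 bp before to 3195 bp after the start site, and was the 71st longest of its list. In all, 9 Suz12 peaks covered 8763 bp (61.8%) of the body, and a further peak of 3723 bp with a score of 3100 lay from 10463 to 6741 bp before the start site. The 3 Myc-ESC H3K27me3 peaks in the window measured 136 to 162 bp and had scores from 56.4 to 70.9. The antisense gene Tbx3os1 starts within the Tbx3 window, at 119671508, so the peaks cannot be assigned to one of the pair.

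Prdm14 (gene ID 383491, minus strand of chromosome 1 from 13113428 to 13127163), a PR-domain protein that restrains Fgf signalling and DNA methylation and can recruit PRC2, already had Suz12 in LIF-ESCs. There, 2 peaks covered 1172 bp of the window, with the stronger (score 431) from 1038 to 2154 bp after the start site. In Myc-ESCs 3 peaks covered 3419 bp, and the strongest (score 2778) ran over the start site, from 392 bp before to 2882 bp after it. The H3K4me3 domain was 4743 bp in LIF-ESCs against 3431 bp in Myc-ESCs, 1.38-fold shorter, and in each list its peak had the lowest score among the 10 genes. The 2 Myc-ESC H3K27me3 peaks, of 255 and 185 bp, lay over intron 2 and exon 2, and the stronger had a score of 121, the highest of any H3K27me3 peak in the windows of the 10 genes.

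Zfp42 (gene ID 22702, minus strand of chromosome 8 from 43295067 to 43307009), which encodes the zinc-finger protein Rex1, a common reporter of the naive state, had the longest domain in LIF-ESCs. It measured 20560 bp there, the 35th longest peak of the list, and 7615 bp in Myc-ESCs, a ratio of 0.370. The shorter domain comes with a break in the peak and little loss over the gene: a second Myc-ESC peak of 9583 bp followed the first directly and the Zfp42 body was covered to 100.0% in LIF-ESCs but 99.2% in Myc-ESCs. With peaks within 1000 bp of each other joined, the Zfp42 ratio was 0.769, short of the 1.5-fold limit. The nearest Suz12 peaks lay about as far upstream in both cultures, 12193 bp from the start site in LIF-ESCs against 12086 bp in Myc-ESCs.

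**Figure D3:**
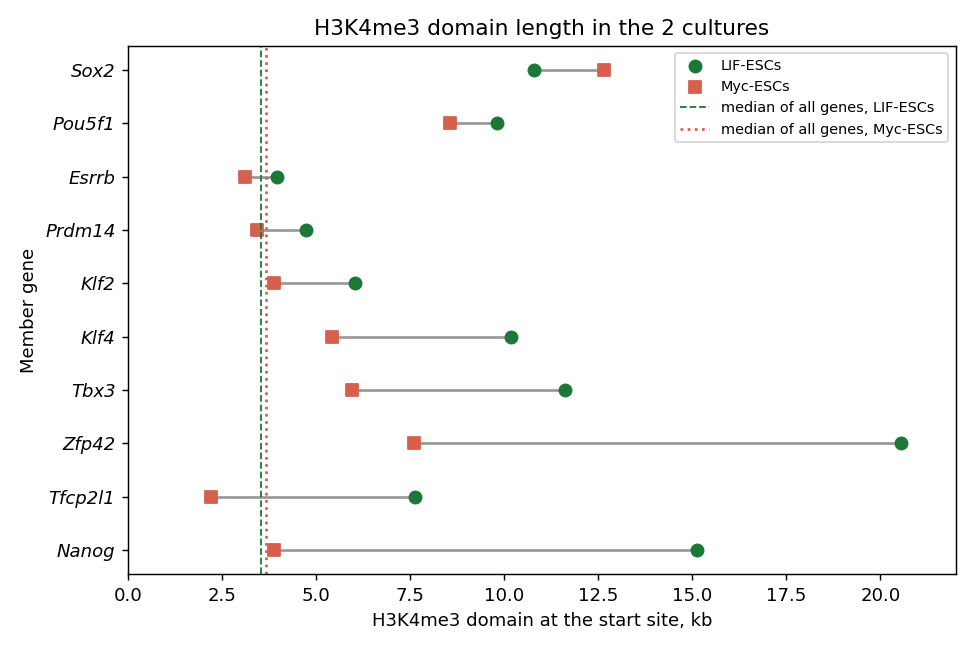
Length of the H3K4me3 domain at the start site in kb (horizontal axis) for each gene (vertical axis, ordered by ratio) in LIF-ESCs (circles) and Myc-ESCs (squares). Dashed and dotted lines are the medians over all marked genes. All 10 circles lie to the right of their median of 3524 bp, and for every gene but Sox2 the square lies to the left of its circle.

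In LIF-ESCs the 10 domains ranged from 3959 to 20560 bp with a median of 9991 bp, against 3524 bp over the 16275 marked genes. Pou5f1, Nanog, Sox2, Klf4, Tbx3 and Zfp42 each exceeded over 95% of those genes in length. In Myc-ESCs the domains ranged from 2203 to 12641 bp with a median of 4653 bp, against 3660 bp over 16572 genes. In that culture 56.5% of marked genes had a shorter domain than Nanog and 57.0% a shorter one than Klf2, whereas Sox2 and Pou5f1 stayed above 99.4 and 96.7%. The order of the genes by length therefore changed, from Zfp42, Nanog, Tbx3 and Sox2 as the 4 longest to Sox2, Pou5f1, Zfp42 and Tbx3. The place of Zfp42 depends on a break, since its 7615-bp Myc-ESC domain leaves out the 9583-bp peak that followed directly. Myc-ESC peaks covered 17198 bp of the Zfp42 LIF-ESC domain, more than the length of the Sox2 domain.

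The median Myc- to LIF-ESC ratio of domain lengths was 0.588 over the 10 genes and 1.041 over all 15958 genes marked in both cultures, and 9 of the 10 ratios were below 1. Nanog, Tfcp2l1, Zfp42, Tbx3, Klf4 and Klf2 passed the 1.5-fold limit. Among all genes marked in both cultures 5.31% did so, and 6.05% were longer by the same factor. Zfp42 passed because of a break between 2 Myc-ESC peaks. Once peaks within 1000 bp were joined, its ratio was 0.769, 5 genes passed and the median ratio of the 10 was 0.684. The shares of all genes were not recomputed for joined peaks. Domains that were long in LIF-ESCs were shorter in Myc-ESCs more often, but length in LIF-ESCs is also the divisor of the ratio. Selecting by it can lower the ratios by itself, which was not tested. Of genes with a LIF-ESC domain of 5000 bp or more, a limit chosen after the values were seen, 19.3% were at least 1.5-fold shorter, with a median ratio of 0.908. Of the 10 genes, 8 had domains of that length, and the 6 named were among them. The limit, which 3799 genes passed, does not match those genes to the 10 in length. Klf4, Tbx3, Nanog and Zfp42 had LIF-ESC domains longer than those of at least 96.2% of marked genes. No gene of the 10 had H3K4me3 in a single culture, which was the case for 2.35% of all genes in Myc-ESCs only and for 1.21% in LIF-ESCs only. Over the body, Tfcp2l1, Esrrb, Nanog, Tbx3 and Klf4 had at least 1.5-fold fewer bases under H3K4me3 in Myc-ESCs, against 11.9% of all genes covered in both cultures.

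**Figure D4:**
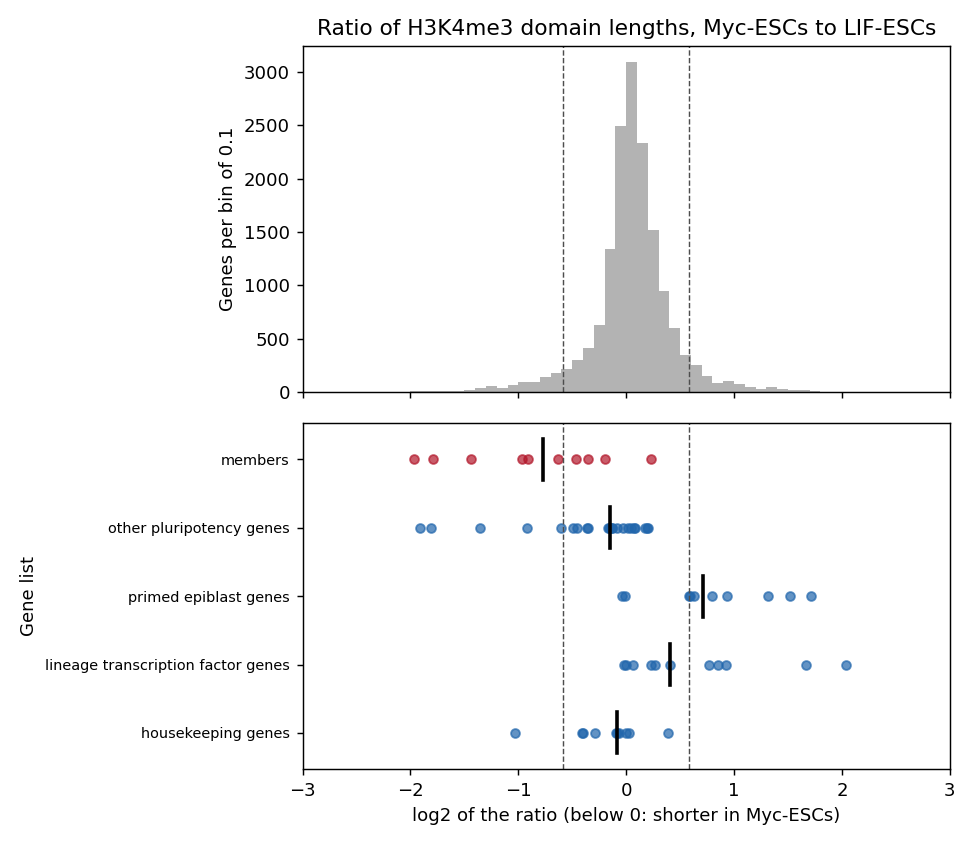
Upper panel, number of genes (vertical axis) by log2 of the Myc- to LIF-ESC ratio of H3K4me3 domain length (horizontal axis), over the 15958 genes marked in both cultures. Lower panel, the same ratio for each gene of the 5 lists (points) with the median (black line). Dashed lines mark 1.5-fold, and the median ratio is 0.588 for the 10 genes (members) and 1.643 for the primed epiblast genes.

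Suz12 and H3K27me3 were not always called at the same genes. In Myc-ESCs, Klf4 had Suz12 without an H3K27me3 peak, and Tfcp2l1 had 1 H3K27me3 peak, of score 53.8, without Suz12. Esrrb, Tbx3 and Prdm14 had both in Myc-ESCs. At 2 of the 10 genes, Klf4 and Tbx3, Suz12 appeared only in the Myc-ESC list, against 3.82% of all genes, and at none only in the LIF-ESC list, against 1.28%. Of the 8 genes with H3K4me3 and no Suz12 in LIF-ESCs these were 2, where 7% of all genes in that state had Suz12 in Myc-ESCs. Of Esrrb and Prdm14, with Suz12 in both cultures, Prdm14 had at least 1.5-fold more bases under it in Myc-ESCs, which held for 44% of all such genes. H3K27me3 in Myc-ESCs only was called at 4 of the 10 genes, against 7.65% of all genes and 11.8% of those with H3K4me3 and no H3K27me3 in LIF-ESCs, and in LIF-ESCs only at none, against 0.733%. The Myc-ESC H3K27me3 list is the longer by far, and with both lists limited to 3120 peaks, or to peaks with a score of at least 100, Prdm14 alone kept the mark. Klf4 and Tbx3 had Suz12 in Myc-ESCs only under every alternative that was run for it.

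**Figure D5:**
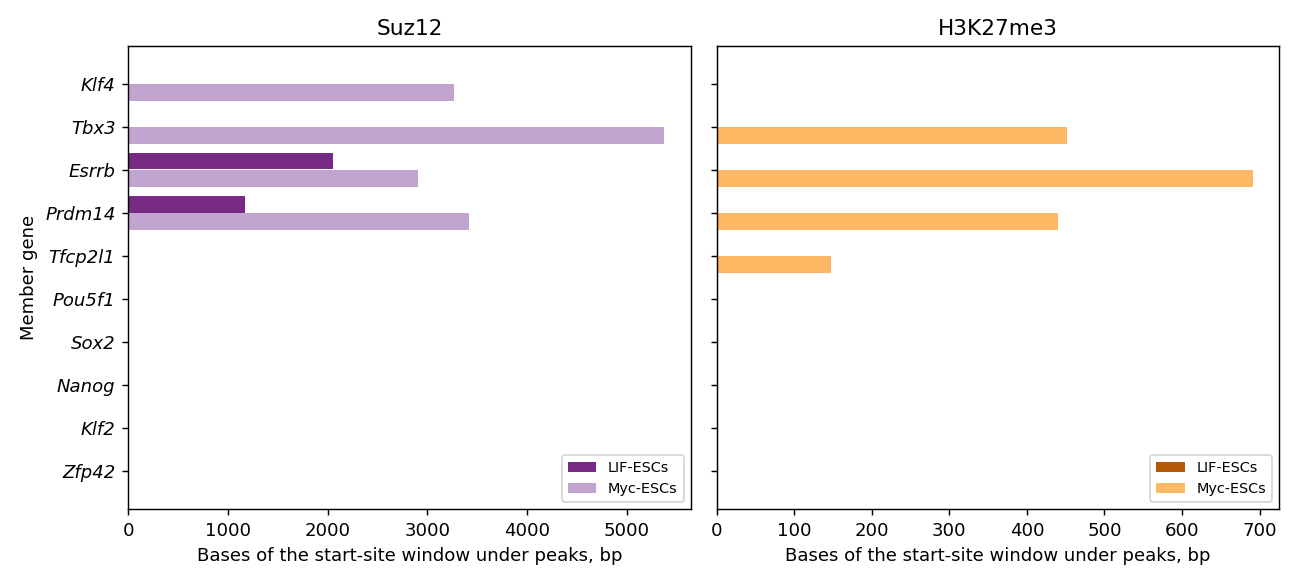
Bases of the start-site window under Suz12 peaks (left) and H3K27me3 peaks (right), in bp, for each gene in LIF-ESCs (dark bars) and Myc-ESCs (light bars). A missing bar is a value of 0. Suz12 covered 5372 bp at Tbx3 and 3264 bp at Klf4 in Myc-ESCs and 0 bp in LIF-ESCs, and H3K27me3 covered at most 691 bp, at Esrrb.

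Within the start-site windows, most bases under Myc-ESC Suz12 peaks were under Myc-ESC H3K4me3 peaks as well. Outside the window this was not always so, since the 3723-bp Suz12 peak upstream of Tbx3 lay under no Myc-ESC H3K4me3 peak. All 3264 bp at Klf4 lay under the Myc-ESC H3K4me3 peak, as did 91.8% of the Suz12 bases in the window at Esrrb, 90.3% at Tbx3 and 82.7% at Prdm14. Among 3690 other genes with both in Myc-ESCs, the median was 100.0%. In the other direction, Suz12 covered 100.0% of the Myc-ESC H3K4me3 bases in the windows of Tbx3 and Prdm14, 86.1% at Esrrb and 70.4% at Klf4, against a median of 40.4%. These are overlaps of calls from cell populations and do not tell whether both lie on the same chromosomes.

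CpG content split the genes for which it was known in a different way from the marks. RefSeq promoter entries of 300 bases, 250 before and 50 after the start site, were matched for 8 of the 10 genes, with 11 entries in all. Tbx3 and Prdm14, which both had Suz12 in Myc-ESCs, had no entry, so their CpG content is not given. Klf4 had 40 CpGs, Klf2 32, Sox2 27 and Tfcp2l1 21, while the entries of Pou5f1, Zfp42, Esrrb and Nanog held 4 to 11, against a median of 7 over 32851 entries. Over the start-site windows, Klf4 had 6.30 CpGs per 100 bp, Sox2 5.48 and Klf2 4.60, each more than in 97% or more of 19528 genes. Of these 3 CpG-rich windows, the one of Klf4 held Suz12. At Esrrb, where the printed upstream run holds 3 CpGs, the Myc-ESC Suz12 peaks had 4.91 CpGs per 100 bp against 3.60 within 2500 bp of the start site at 86421644, and they lay mostly downstream of the start site. The median window had 2.94 CpGs per 100 bp at 2662 other genes with Suz12 and H3K4me3 in Myc-ESCs and 2.30 at 10086 with H3K4me3 alone.

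Where H3K4me3 was called in LIF-ESCs only, CpGs were sparse. In the LIF-ESC domain of Klf4, the 5415 bp that lay under a Myc-ESC peak as well had 5.93 CpGs per 100 bp and the other 4767 bp had 1.17. At Tfcp2l1 the values were 3.09 and 0.830, at Klf2 5.89 and 0.930, and at Esrrb 4.74 and 0.817. The contrast was smaller at Nanog, with 1.54 and 1.16, Zfp42, with 1.39 and 1.01, and Pou5f1, with 1.71 and 1.15. The retained bases were the denser ones in all 7 of these genes, and the whole Sox2 domain was retained. The same held for 97.1% of 629 other genes with a domain at least 1.5-fold shorter, at medians of 2.88 and 1.10, so it is not particular to the 10 genes.

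Motifs were sought as exact matches on both strands of the 300-base entries, which Tbx3 and Prdm14 lacked. Among the genes with entries, CACGTG, the E-box bound by Myc and Max, was found at Klf4 only, at position -182 from the start site. It was found in 7.15% of all entries. Tbx3, the other gene with Suz12 in Myc-ESCs only, was not searched. The exact octamer ATTTGCAT, read by Oct factors, was found at Zfp42 only, at position -186, and in 1.74% of all entries. Near matches were not counted, such as ttttgcat in the Nanog run shown above, which differs in its first base. TTCCNGGAA, a form of the Stat site (1.15% of all entries), and CTTTGA, a core of the Tcf/Lef site (16.0%), were found in none of the 11 entries. Enhancers lie outside these short stretches.

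Other genes of pluripotency were near the background in Polycomb peaks and in the median ratio for long domains, but some had much shorter domains in Myc-ESCs. Of 24 further pluripotency genes, all 24 had H3K4me3 in LIF-ESCs but 23 in Myc-ESCs. The median ratio of domain lengths was 0.900 over 23 of them, with 5 at least 1.5-fold shorter and none longer. Of all genes marked in both cultures, 5.31% were shorter and 6.05% longer by that factor. The LIF-ESC domains of the 24 genes had a median of 9519 bp. All genes with a LIF-ESC domain of 5000 bp or more had a median ratio of 0.908, with 19.3% shorter. Not all of the 23 had domains of that length, but the 5 shorter ones did. The 3 lowest ratios were those of Klf5 (18927 to 5037 bp, 0.266), a Krüppel-like factor, Tet2 (16374 to 4676 bp, 0.286), an oxidase of 5-methylcytosine, and Nr5a2 (10576 to 4121 bp, 0.390), a nuclear receptor that can replace Oct4 in reprogramming. The 3 highest were 1.153 for Tcf7l1, the Tcf repressor of Wnt targets, 1.142 for Dppa3 and 1.126 for Dnmt3l. Polycomb peaks lay at 4 of the 24 in Myc-ESCs, against 16.1% of all genes. Klf5 had a Suz12 peak of score 497 and an H3K27me3 peak of score 58.1 in Myc-ESCs only. Nr5a2 had 3 Suz12 peaks in Myc-ESCs only, of score 66.4 at most. Gbx2, a homeobox gene downstream of Stat3, had Suz12 over 1882 bp in LIF-ESCs against 4990 bp in Myc-ESCs, and H3K27me3 over 1541 bp in Myc-ESCs only. Dppa3 went the other way, with Suz12 over 1036 bp in LIF-ESCs against 283 bp in Myc-ESCs and H3K27me3 over 496 and 150 bp.

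The other lists were given for scale. Of 10 genes of the primed epiblast, the later state that follows the naive one, 7 had a domain at least 1.5-fold longer in Myc-ESCs and none a shorter one, with a median ratio of 1.643, and 8 had Suz12 in each culture. Of 12 lineage transcription factor genes, all had Suz12 in both cultures, 5 of the 11 marked in both had a longer domain and none a shorter one. Among 10 housekeeping genes, 1 had a shorter domain, none a longer one and none a Polycomb peak, at a median ratio of 0.941.

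For each of the 5 genes with a Polycomb peak, the genes with the most similar pattern were sought by the distance between the 6 values of log10 of 1 plus the bases covered in the window, over the 6 lists. Klf4 was nearest to Skida1 (distance 0.043) and to Socs3 (0.149), the feedback inhibitor of Jak/Stat3. In Socs3, Suz12 covered 0 bp in LIF-ESCs against 2604 bp in Myc-ESCs. No H3K27me3 peak was listed in the Socs3 window in Myc-ESCs, although the paper reports that Socs3 gained this mark there. A peak missing from this list, as at Klf4, thus does not show that the mark is absent. Esrrb was nearest to B3gat2 (0.102) and Rbm46os (0.106). Tbx3 was nearest to Tbx3os1 (0.046), whose window it shares, and to Smarcd3 (0.244). Prdm14 was nearest to Gm42303 (0.131) and Gm32278 (0.172), and Tfcp2l1 to Ltb4r2 (0.176) and Ccdc9b (0.222).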

How the data were processed

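ChIP-sequencing libraries (16: 2 per culture and antibody, and 4 inputs) were made by the authors, who aligned the reads to GRCm38 with Bowtie2 2.2.3, kept uniquely placed reads and ran MACS 1.4.2 with default settings. The authors deposited 6 lists of peaks, each with a position and a score (the peak's p-value on a log10 scale). It is not stated whether the libraries of a list were combined, and no counts were analysed here, so depth is unknown and neither errors nor tests are given. Groups were taken from the titles of the samples.

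Peaks were set against 45756 curated RefSeq transcripts (NM and NR accessions) of 26180 gene symbols on 21 chromosomes, with Python 3.11.15, pandas 2.3.3 and numpy 2.4.6, using interval code tested on simulated data. A mark was assigned to a gene where at least 1 bp of a peak fell within 2500 bp of a start site. A body ran from the first to the last base of the gene. Exons and introns refer to the curated transcript with the lowest accession, and coordinates count from 1. A distance to the nearest peak is counted from the start site of that transcript. Sequence was read with pysam 0.24.0 and samtools 1.23.1. Figures were drawn with matplotlib 3.10.9.

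The 10 genes, the other lists and the limits were chosen with earlier results of these data known. Named beside the 10 were pluripotency genes with a Polycomb peak or the 3 highest and 3 lowest ratios, the 2 genes nearest in pattern to each gene with a Polycomb peak, and genes starting in a window. Alternatives were windows of 1000 and 5000 bp, a score of at least 100, lists of equal length, other start sites, an overlap of 100 bp, peaks joined within 1000 bp, a 2-fold limit, and bodies with 5000 bp added on either side. Gene expression was not analysed here.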

Additional observations from a re-analysis of the deposited data

How the results depend on the processing

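No paired analysis was possible because each culture and antibody has 1 list and no result comes from a test. For the same reason no replicate could be left out. Of 147 counts and medians recomputed under the alternatives, 136 stayed within 1.5 times their value and 11 did not. Some of the 136 could not change, such as median lengths under a 2-fold limit. Of 146 values of single genes, 134 stayed within 1.5 times. With the window cut to 1000 bp each way, Suz12 in LIF-ESCs was called at 1 gene of the 10 (Esrrb), and H3K27me3 in Myc-ESCs at 1 (Esrrb), which was then also the number with it in Myc-ESCs only. With a score of at least 100, and likewise with lists of equal length, H3K27me3 in Myc-ESCs was called at 1 start site, in Myc-ESCs only at 1, and over 1 body, each time that of Prdm14. With only the most upstream start site of each gene, Suz12 in LIF-ESCs was called at 1 gene (Prdm14), since Esrrb then loses the start site that carries the peaks. With a 2-fold limit, 3 genes had a shorter H3K4me3 domain (Nanog, Tfcp2l1 and Zfp42). Joining peaks within 1000 bp gave Zfp42 a ratio of 0.769 and left 5 genes past the 1.5-fold limit. Model transcripts gave a domain ratio of 0.836 for Zfp42, peaks joined within 1000 bp gave 0.281 for Tbx3, and Klf2 had a ratio of 0.644 over its body with 5000 bp added on either side. The unknown depth limits every absence: a peak that is not listed may lie below what a list could detect, above all for H3K27me3 in LIF-ESCs. The lengths of called peaks and the breaks between them, and so the domain ratios, may also depend on depth, which was not tested.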
